A study of Homo sapiens with 6 samples.

Results

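Histone genes were followed across 6 expression arrays of HCT116 cells, a long-established line from a human colorectal carcinoma. The cells had been sorted by CD133 (prominin-1), a membrane protein that marks cells with tumour-initiating capacity in some colorectal cancers. All 61 probe sets annotated to a single core or linker histone gene of the HIST1 to HIST4 clusters, or to a single H1 gene, were taken, out of 28230 probe sets tested. Each named a different gene and none was left out for a low signal. A further probe set matched the letters of the rule but named the antisense RNA gene H1-10-AS1 and was not counted. Probe sets that named a histone gene together with other genes numbered 17 and are described separately. The groups were 3 arrays of CD133+ cells and 3 arrays of CD133- cells, each numbered as repetitions 1, 2 and 3. Both fractions came from the same line, and the labels name no treatment or genotype change. They also do not say whether a repetition number marks its own culture or sort, so a p-value here reflects the spread among these 6 arrays, which may be technical. The questions asked of the values were: whether histone transcripts differed between the CD133+ and the CD133- fraction, and whether the arrays of 1 repetition number differed from those of the others.

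Core histones form the octamer of the nucleosome, with H2A, H2B, H3 and H4 around which DNA is wound, and H1 linker histones bind between nucleosomes. Most of their genes lie in clusters, the largest on chromosome 6, and are replication-dependent: their transcripts are made mainly in S phase, end in a stem-loop instead of a poly(A) tail, and are bound there by the stem-loop binding protein SLBP. Many copies encode the same or nearly the same protein, and H4 genes differ mainly at the level of the DNA. The RNA was labelled with a whole-transcript kit, which primes along the transcript and does not depend on a poly(A) tail.

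All values are log2 RMA signals and all differences are on the log2 scale. PROM1, the gene of CD133, averaged 7.35 ± 0.25 in CD133+ cells and 4.57 ± 0.67 in CD133- cells (SD, n = 3 each), and its groups did not overlap. In the fit with fraction as the only term it did not pass (limma, difference 2.77, adjusted p = 0.142), and with repetition as a block it did (adjusted p = 0.0120). Of 8 colorectal epithelial markers 6 lay above the median signal of all probe sets, 5.53, among them KRT18 at 11.39 and CDH1 at 8.45, whereas VIL1 at 4.53 and LGALS4 at 5.40 did not. None of the 6 leukocyte and 5 endothelial markers measured lay above it, and of 6 fibroblast markers 1 did, COL1A1 at 7.47. Array medians lay between 5.44 and 5.60.

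The 61 members comprised 10 H1, 14 H2A, 17 H2B, 8 H3 and 12 H4 genes. Chromosome 6 held 49 of them, chromosome 1 held 7, chromosomes 3 and 12 held 2 each and chromosome 17 held 1. By known biology 53 are replication-dependent. The other 8 are the testis genes H2AC1, H2BC1, H1-6 and H1-7, the oocyte gene H1-8, the pseudogenes H1-9P and H2BC19P, and H1-10, a replication-independent linker histone. Mean signals over the 6 arrays ran from 1.97 for H2AC13 to 11.76 for H4C3, and 33 members lay above the median of all probe sets. Within each class the signals spanned a wide range, from 3.82 to 11.76 among H4 probe sets and from 1.97 to 11.25 among H2A probe sets. A signal depends on the probes of its probe set, so these levels do not rank the genes by amount of RNA.

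**Figure D1:**
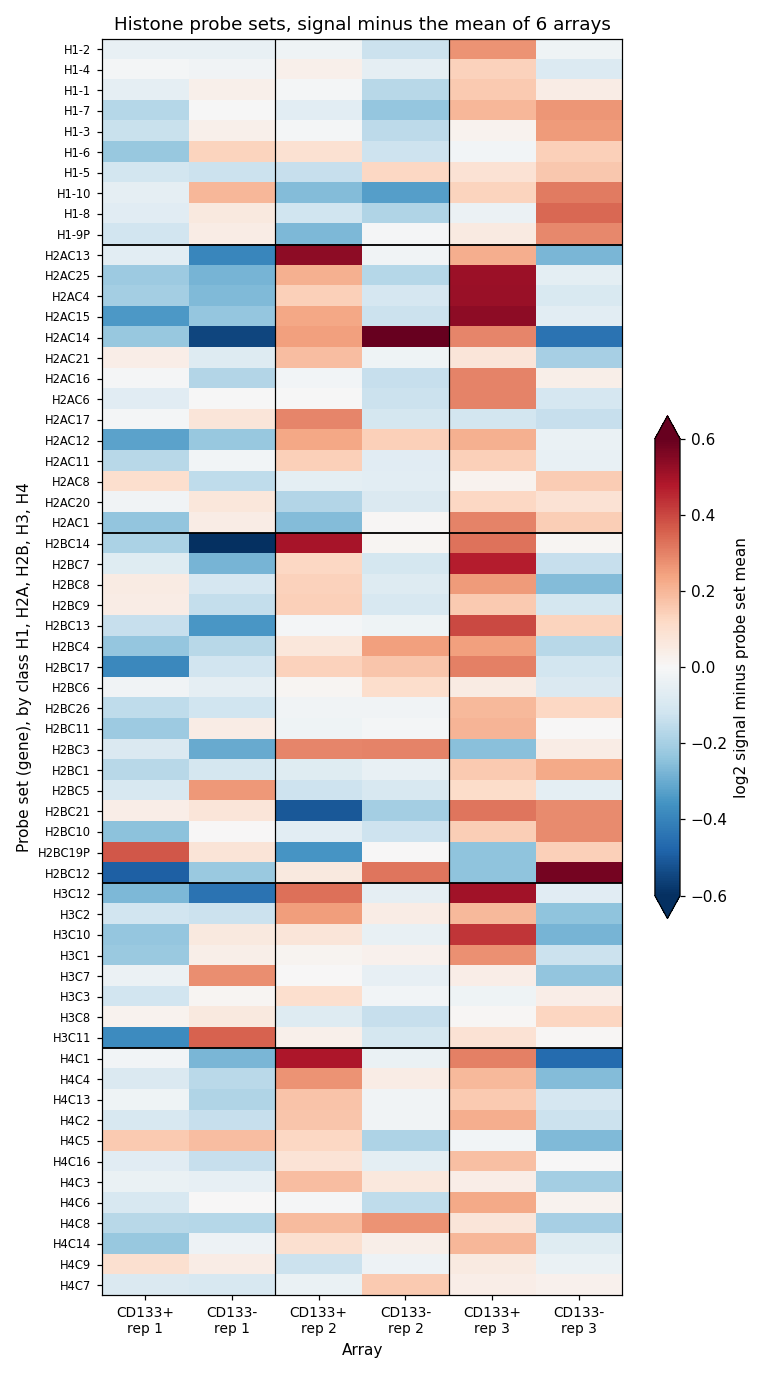
Heat map of the 61 histone probe sets (rows, by class and within a class by difference between fractions) on the 6 arrays (columns), coloured by log2 signal minus that probe set's mean over the 6 arrays, with colours saturating beyond 0.6 either way. Most of the upper rows of the H2A, H2B, H3 and H4 blocks are red in the CD133+ array of repetition 3, and 51 of 61 rows had a lower mean in repetition 1 than in the other repetitions.

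Many members share sequence with another locus. The probe set annotation listed a transcript accession or symbol of 13 of the 61 under another probe set as well, in 6 of 17 H2B, 4 of 14 H2A, 2 of 8 H3, 1 of 12 H4 and 0 of 10 H1 members. Of the 61 members 31 carried in RefSeq's gene table the symbols of other members as synonyms, among them 11 of 12 H4 and 8 of 8 H3 members. A signal of such a probe set may include transcripts of its near-identical copies. The annotation and the synonyms point to different classes. Probe sequences were not compared, so which members are affected was not tested.

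Promoter sequences from RefSeq (GRCh38.p14) matched 54 of the 61 members, and the 250 bases before each start were searched on both strands for 3 short motifs. CCAAT was found in 46 of the 54, against 32.0% of all 35116 promoters in the table. TATAAA was found in 35, against 10.7% of all promoters. ATTTGCAT, the octamer bound by POU factors, was found in 23, against 1.63% of all promoters. No motif holds the letters of another on either strand. Among replication-dependent members the octamer was confined, over the promoters searched, to 12 of 15 H2B and 9 of 12 H2A genes, with 0 of 5 H1, 0 of 6 H3 and 0 of 10 H4 genes. CCAAT was in all H1, H2A, H2B and H3 promoters of that kind and in 3 of 10 H4 promoters. A match is a description of the letters in this window and says nothing of whether a factor was bound. The promoter windows of 9 pairs of an H2A and an H2B member overlapped, and both strands were searched. A motif in a shared stretch could therefore be counted for both genes of a pair. The H2A and H2B counts, and the counts over the 54, are thus not counts of separate stretches.

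The stretches below run from 130 to 11 bases before the start of genes that the results turn on, with H2AC4, H3C2 and H4C4 as bright examples of their classes; capitals mark the 3 motifs on either strand. They lie at chr6:27814892-27815011 on the plus strand for H2BC14, chr6:26199386-26199505 on the plus strand for H2BC7, chr6:27146869-27146988 on the minus strand for H2BC12 and chr1:149886693-149886812 on the minus strand for H2BC21. For the other classes they lie at chr6:26033629-26033748 on the minus strand for H2AC4, chr6:26032110-26032229 on the minus strand for H3C2 and chr6:26189123-26189242 on the minus strand for H4C4 (GRCh38.p14, each 5′ to 3′ in the direction of the gene).
H2BC14: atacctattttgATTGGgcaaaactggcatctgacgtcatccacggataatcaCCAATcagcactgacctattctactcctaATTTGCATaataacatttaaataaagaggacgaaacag
H2BC7: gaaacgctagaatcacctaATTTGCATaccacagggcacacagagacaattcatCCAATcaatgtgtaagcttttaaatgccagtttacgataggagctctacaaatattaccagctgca
H2BC12: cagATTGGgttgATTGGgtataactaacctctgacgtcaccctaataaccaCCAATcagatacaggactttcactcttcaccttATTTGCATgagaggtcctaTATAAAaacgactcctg
H2BC21: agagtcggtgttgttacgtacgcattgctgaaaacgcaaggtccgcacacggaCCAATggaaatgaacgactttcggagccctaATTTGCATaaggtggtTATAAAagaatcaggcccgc
H2AC4: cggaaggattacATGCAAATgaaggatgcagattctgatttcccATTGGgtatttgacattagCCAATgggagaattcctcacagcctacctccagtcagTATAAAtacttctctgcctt
H3C2: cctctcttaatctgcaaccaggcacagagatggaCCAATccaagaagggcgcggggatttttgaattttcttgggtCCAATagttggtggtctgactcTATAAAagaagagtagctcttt
H4C4: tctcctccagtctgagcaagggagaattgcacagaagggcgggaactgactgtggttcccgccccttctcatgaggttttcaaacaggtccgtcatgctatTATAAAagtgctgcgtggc
The octamer of H2BC14 starts 48 bases before the gene's start and those of H2BC12 and H2BC21 start 46 bases before it, whereas that of H2BC7 starts 111 bases before it. H2BC14 and H2BC7 have no TATAAA on their own strand in the stretch shown, and H2BC12 and H2BC21 have it at 27 and 30 bases before the start. The stretch of H4C4 holds no CCAAT and no octamer.

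Between the fractions most replication-dependent histone probe sets lay slightly higher in CD133+ cells, but no member passed the test. With fraction as the only term limma called 0 of 61 members at an adjusted p under 0.05, against 0.00354% of all probe sets, and every member had an adjusted p of 1.00. The unadjusted p was under 0.05 for 3 members, H4C1, H2AC13 and H2BC8, against 3.45% of all probe sets. All 3 were higher in CD133+ cells, against 1.64% of all probe sets. With repetition as a block it called 0 members, against 0.298% of all, and the unadjusted p was under 0.05 for 14 members, against 11.3% of all probe sets. Of these 12 were higher in CD133+ cells, against 5.82%, and 2 were lower, against 5.53%. In bulk samples fewer cells of a type and less RNA per cell cannot be told apart. For a single probe set, exact permutation of 3 against 3 arrays has 0.1 as its smallest two-sided p.

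The differences of 40 members were above 0, against 49.4% of all probe sets, and the median difference was 0.06 over the members against -0.002 over all probe sets. Among the 53 replication-dependent members 40 lay above 0, with a median of 0.085. Of the 8 testis, oocyte, pseudogene and replication-independent members 0 lay above 0, with a median of -0.13. A lean below 0 was not particular to these 8. Of the marker lists, 1 of 6 leukocyte, 1 of 6 fibroblast and 0 of 5 endothelial genes lay above 0, and 4 of 8 epithelial genes did. Groups did not overlap for 6 members that were higher in CD133+ cells (H1-4, H2AC21, H2BC7, H2BC8, H2BC9 and H4C1), against 3.5% of all probe sets, and for 0 members that were lower, against 4.28%. In all 3 repetitions 20 members were higher in CD133+ cells and 3 were lower (H1-9P, H2BC1 and H2BC12), against 16.8% of all probe sets in each direction. The median was 0.13 over the 33 members above the median signal and 0.01 over the 28 others, against 0.01 and -0.01 for all probe sets split in the same way.

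The size of the difference varied among the repetitions. Within repetition 1 the median over the 61 members was -0.03 and 29 of them were higher in CD133+ cells, against 47.2% of all probe sets. Within repetition 2 the median was 0.11 with 42 higher, against 52.6%, and within repetition 3 it was 0.22 with 46 higher, against 49.8%. For the 53 replication-dependent members alone the medians were 0.003, 0.12 and 0.26. The pooled median therefore rests on single arrays: without the CD133+ array of repetition 3 it was 0.003, and without the CD133+ array of repetition 1 it was 0.15. With 1 pair of arrays in each repetition, the differences between repetitions have no test.

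**Figure D2:**
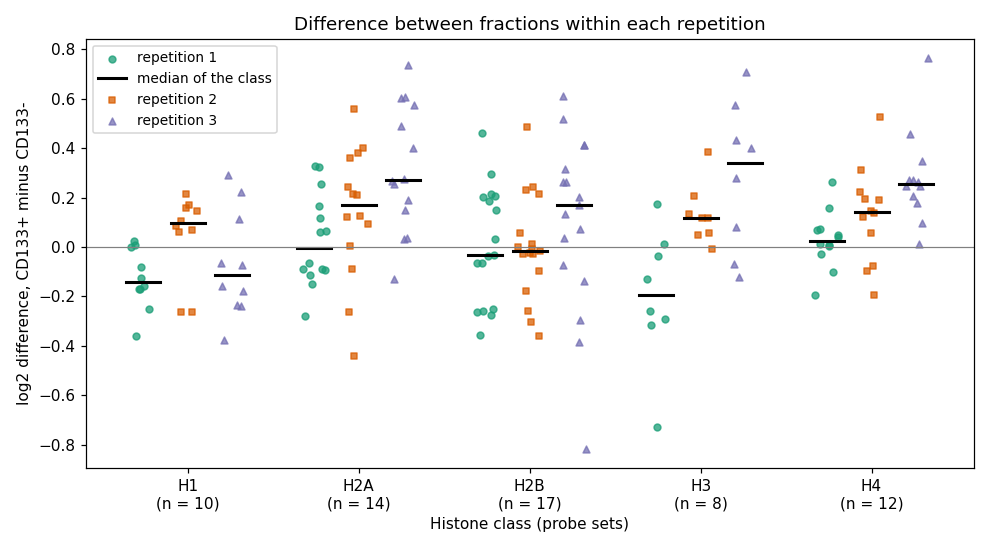
Difference between CD133+ and CD133- cells (log2 signal, vertical axis) for each of the 61 histone probe sets, by class (horizontal axis) and repetition (colour and shape); horizontal bars are class medians. The medians of H2A, H2B, H3 and H4 probe sets are highest in repetition 3, at 0.27, 0.17, 0.34 and 0.26, and that of H1 probe sets in repetition 3, of which 5 of 10 are replication-dependent, is -0.11.

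H4 genes encode the histone that pairs with H3 at the centre of the nucleosome, and 11 of 12 H4 members were higher in CD133+ cells, with a median difference of 0.13. H4C1 had signals of 8.30, 8.80 and 8.62 in CD133+ cells, against 8.04, 8.27 and 7.85 in CD133- cells. All 3 CD133+ arrays lay above all 3 CD133- arrays, and the nearest arrays of the groups were at 8.30 in CD133+ and 8.27 in CD133- cells. The difference of 0.52 ± 0.17 (SE, n = 3 each), or 1.43-fold, was the largest of the 61 and did not pass (limma, adjusted p = 1.00, and 0.170 with repetition as a block). H4C3, the member of the highest signal, measured 11.72, 11.94 and 11.80 in CD133+ cells, against 11.71, 11.82 and 11.56 in CD133- cells, and these ranges overlapped. H4C4 measured 9.28, 9.63 and 9.56 in CD133+ cells, against 9.21, 9.41 and 9.10 in CD133- cells, a difference of 0.25. H4C14 differed by 0.04. The other 8 H4 members differed by between -0.06 for H4C7 and 0.20 for H4C13.

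H2B genes encode the partner of H2A, and 9 of 17 H2B members were higher in CD133+ cells, with a median difference of 0.01. This class held the lowest difference of the 61 and the third highest. H2BC14, whose promoter is shown above, had signals of 9.81, 10.50 and 10.33 in CD133+ cells, against 9.35, 10.01 and 10.01 in CD133- cells. The ranges overlapped because both arrays of repetition 1 were low, while within every repetition the CD133+ array was the higher, by 0.46, 0.48 and 0.32. Its difference of 0.42 had an SE of 0.24 with fraction as the only term (limma, adjusted p = 1.00) and 0.08 with repetition as a block (adjusted p = 0.147). Set among brighter probe sets alone, or with a prior variance that follows intensity, the block fit gave H2BC14 an adjusted p of 0.0361 and 0.0238, and on the brighter probe sets H4C1 had 0.0488. These settings were chosen after the data had been seen.

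H2BC7 measured 8.5, 8.70 and 9.05 in CD133+ cells, against 8.30, 8.47 and 8.44 in CD133- cells, a difference of 0.35 ± 0.16 (SE). Its groups did not overlap, and the CD133+ array of repetition 3 stood highest. H2BC9 and H2BC8 also had groups that did not overlap, with differences of 0.23 and 0.29. H2BC12 lay at the other end. It measured 7.21, 7.76 and 7.46 in CD133+ cells, against 7.48, 8.02 and 8.28 in CD133- cells. The CD133+ array was the lower in each repetition, by the most in repetition 3, and the groups overlapped. Its difference of -0.45 ± 0.23 (SE) was the lowest of the 61 and did not pass (limma, adjusted p = 1.00, and 0.284 with repetition as a block). H2BC21 and H2BC5 differed by -0.10 and -0.07. H2BC4 measured 7.53, 7.83 and 8.01 in CD133+ cells, against 7.60, 8.01 and 7.60 in CD133- cells, with no order between the fractions.

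**Figure D3:**
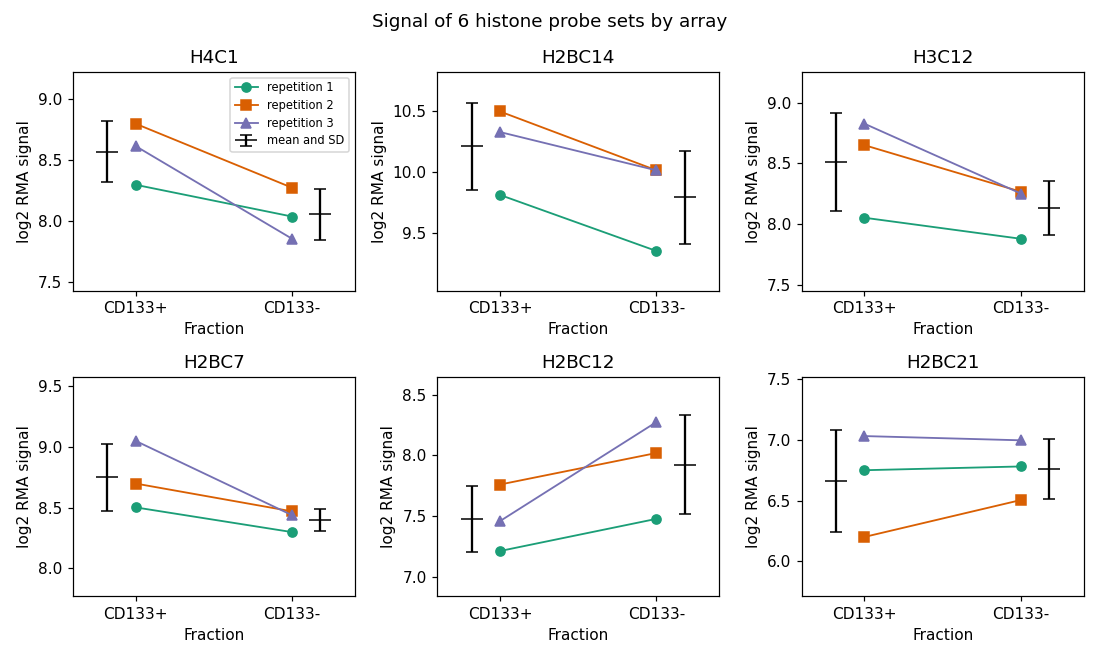
Log2 signal (vertical axis, separate range per panel) of H4C1, H2BC14, H3C12, H2BC7, H2BC12 and H2BC21 in CD133+ and CD133- cells; lines join the arrays of a repetition and bars show the mean and SD of 3 arrays. The lines fall from CD133+ to CD133- in all 3 repetitions for the first 4 genes and rise for H2BC12. Repetition 1 lies lowest in both fractions for H2BC14, H3C12, H2BC7 and H2BC12.

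H2A genes encode the partner of H2B in the nucleosome, and 12 of 14 H2A members were higher in CD133+ cells, with a median difference of 0.17. H2AC21, on chromosome 1, measured 11.29, 11.44 and 11.33 in CD133+ cells, against 11.18, 11.23 and 11.05 in CD133- cells, a difference of 0.20 with groups that did not overlap. Its neighbour H2AC20 measured 10.82, 10.67 and 10.96 in CD133+ cells, against 10.91, 10.76 and 10.93 in CD133- cells, a difference of -0.05. H2AC4 measured 8.94, 9.29 and 9.66 in CD133+ cells, against 8.88, 9.05 and 9.06 in CD133- cells, where the CD133+ array of repetition 3 was the highest. The difference of H2AC13 was 0.46 at a mean signal of 1.97, the lowest of all members, with 1.91, 2.51 and 2.19 in CD133+ cells, against 1.58, 1.95 and 1.70 in CD133- cells.

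H3 genes encode the histone whose tail carries many of the best known modifications, and 5 of 8 H3 members were higher in CD133+ cells, with a median of 0.02. H3C12 measured 8.05, 8.65 and 8.83 in CD133+ cells, against 7.88, 8.27 and 8.25 in CD133- cells. The CD133+ array was the higher in every repetition, and both arrays of repetition 1 lay below those of the other repetitions in their fraction. Its difference was 0.38 ± 0.21 (SE; limma, adjusted p = 1.00, and 0.254 with repetition as a block). H3C2 measured 10.19, 10.56 and 10.50 in CD133+ cells, against 10.18, 10.35 and 10.07 in CD133- cells, a difference of 0.22. H3C1 differed by 0.04. H3C11 had the lowest difference of the class, -0.17, with 4.74 in CD133+ cells against 5.47 in CD133- cells in repetition 1 and a higher signal in CD133+ cells in the other repetitions.

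H1 linker histones had the lowest class median, -0.09, with 3 of 10 members higher in CD133+ cells. The 5 replication-dependent H1 members alone had a median of 0.06, with 3 of 5 higher and a median of 0.11 within repetition 3, and the other 5 were all below 0. The replication-dependent H1-4 measured 11.34, 11.39 and 11.50 in CD133+ cells, against 11.34, 11.30 and 11.27 in CD133- cells, a difference of 0.11. Its groups did not overlap, but the nearest arrays, both of repetition 1, lay only 0.01 apart. H1-2 measured 7.91, 7.93 and 8.22 in CD133+ cells, against 7.91, 7.82 and 7.93 in CD133- cells. H1-10 measured 8.18, 7.97 and 8.37 in CD133+ cells, against 8.43, 7.91 and 8.55 in CD133- cells, a difference of -0.12. The pseudogene H1-9P measured 6.16, 6.0 and 6.32 in CD133+ cells, against 6.32, 6.27 and 6.56 in CD133- cells. It was lower in each repetition, with a difference of -0.22 (limma, adjusted p = 1.00, and 0.385 with repetition as a block). The pseudogene H2BC19P differed by -0.15 and the oocyte gene H1-8 by -0.15.

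Some H2A and H2B genes are transcribed away from each other from 1 shared stretch. The RefSeq promoter windows overlapped in 9 such pairs among the members. Both genes of a pair had a difference above 0 in 6 pairs and below 0 in 2, and the signs were opposite in 1, H2AC11 at 0.08 with H2BC11 at -0.02. The sizes within a pair could be far apart: H2AC25 differed by 0.34 and H2BC26 by 0.01, and H2AC8 differed by 0.04 and H2BC8 by 0.29. H2AC14 differed by 0.21 and its partner H2BC14 by 0.42, but H2AC14 was lower in CD133+ cells in repetition 2, at 6.22 against 6.66.

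The 17 probe sets that name a histone gene among several symbols gave 0 calls between the fractions in limma, with fraction alone or with repetition as a block; their unadjusted p was under 0.05 for 0 and 4 of them, against 3.45% and 11.3% of all probe sets. Their median difference was 0.07, and 11 lay above 0, against 49.4% of all. A probe set for H4C15 and H4C14 measured 6.89, 5.78 and 6.16 in CD133+ cells, against 7.44, 6.32 and 7.17 in CD133- cells. It was lower in CD133+ cells in every repetition, with a difference of -0.70 (adjusted p = 0.0963 with repetition as a block), while the probe set of H4C14 alone differed by 0.04. The probe set for H2BC12, H2BC12L, H2BC17 and H2BC5 differed by 0.15 where that of H2BC12 alone differed by -0.45. Probe sets that share a gene thus gave opposite signs for these 2 genes. Groups did not overlap for 4 of the 17 that were higher in CD133+ cells, against 3.5% of all probe sets. They did so for 0 that were lower, against 4.28%. Among the 4 was a probe set for H3C10 and H2AC13, with a difference of 0.29.

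The repetitions were then compared with each other in a fit with fraction and repetition as terms, each repetition against the mean of the other repetitions. The 3 contrasts use the same 6 arrays and are not independent. In repetition 1 histone signals lay lower than in the others, with no call. The median over the members was -0.13, against -0.02 over all probe sets, and 51 of 61 members lay below 0, against 55.7% of all. That median rests on single arrays: it was -0.03, against -0.006 over all probe sets, without the CD133+ array of repetition 1, and -0.21 without the CD133- array of repetition 1. Limma called 0 members, against 0.4% of all probe sets. The unadjusted p was under 0.05 for 14 members, against 15% of all probe sets, and 13 of them were lower, against 7.61%.

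H2BC14 had the lowest value in repetition 1. It measured 9.81 and 9.35 there in CD133+ and CD133- cells, against 10.50 and 10.01 in repetition 2 and 10.33 and 10.01 in repetition 3, a contrast of -0.63 ± 0.09 (SE; limma, adjusted p = 0.0590). Each fraction's repetition 1 array was its lowest. H2AC14 followed with -0.59 (adjusted p = 0.292), H3C12 with -0.53 (adjusted p = 0.104) and H2BC12 with -0.53 (adjusted p = 0.159). The highest values in repetition 1 were those of the pseudogene H2BC19P, 0.34, and of H4C5, H3C7 and H2BC5, at 0.25, 0.18 and 0.12.

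In repetition 2 limma called 4 members, against 14.6% of all probe sets, of which 2 were higher, against 8.83%, and 2 lower, against 5.81%. H2BC14 was higher by 0.38 (adjusted p = 0.0378) and H2AC13, the dimmest member, by 0.38 (adjusted p = 0.0411). H2BC21 measured 6.20 and 6.50 in CD133+ and CD133- cells of repetition 2, against 6.75 and 6.78 in repetition 1 and 7.03 and 7.0 in repetition 3. Both repetition 2 arrays were the lowest of the 6, and the contrast was -0.54 ± 0.10 (SE, adjusted p = 0.0228). The 2 probe sets that name H2BC21 with other genes had a smaller contrast of -0.19 each. Neither passed (limma, adjusted p = 0.23 and 0.24). H1-10 measured 7.97 and 7.91 in repetition 2, against 8.18 and 8.43 in repetition 1 and 8.37 and 8.55 in repetition 3, again the lowest arrays, with a contrast of -0.44 (adjusted p = 0.0353). H2AC14 at 0.70 had the highest value and did not pass (adjusted p = 0.0826), at 6.22 in CD133+ and 6.66 in CD133- cells of repetition 2. The median over the members was 0.02, against -0.03 over all probe sets. All 4 calls were lost when the leading rows without a gene were added to the table, and when any single array was left out. The exception was H2BC21, which still passed without the CD133- array of repetition 1.

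In repetition 3 limma called 2 members, against 10.3% of all probe sets. Both were higher, against 4.16% of all called higher. H2BC21 was higher by 0.45 (adjusted p = 0.0445) and H2BC13 by 0.40 (adjusted p = 0.0488). The probe sets that name H2BC21 with other genes had 0.20 and 0.06 and did not pass (limma, adjusted p = 0.21 and 0.71). H2BC13 measured 5.47 and 5.21 in CD133+ and CD133- cells of repetition 3, against 4.93 and 4.72 in repetition 1 and 5.06 and 5.04 in repetition 2. The median over the members was 0.11, against 0.04 over all probe sets, and 46 of 61 lay above 0, against 57.6% of all. The unadjusted p was under 0.05 for 14 members, all higher, against 16.8% of all probe sets. Centring each array on its median moved the median of all probe sets by 0.11 in repetition 2 and by -0.11 in repetition 3. The members' median less that of all probe sets was 0.05 and 0.07 in these repetitions. Centring shifts every probe set of an array alike, so it could not change this gap. The gap depended on single arrays. In repetition 2 it was -0.016 without the CD133+ array of repetition 1, -0.027 without the CD133- array of repetition 3 and 0.095 without the CD133- array of repetition 1. In repetition 3 it was 0.0051 without the CD133+ array and 0.16 without the CD133- array of that repetition. Without any single array, or with the leading rows added, neither call of repetition 3 passed. With centring neither passed either, with H2BC21 at 0.35 (adjusted p = 0.0817) and H2BC13 at 0.29 (adjusted p = 0.101).

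Genes that work with histones or with the cell cycle were read from the same fits. Between the fractions limma called 0 members of all 5 lists, with or without the block. The unadjusted p with the block was under 0.05 for 4 of 29 S phase genes, 3 of 29 G2 and mitosis genes, 1 of 25 histone chaperones and 0 members of the other lists, where 11.3% of all probe sets reached that level. The S phase list had a median difference of 0.11 with 26 of 29 genes higher in CD133+ cells, against 49.4% of all probe sets. Of the 14115 probe sets above the median signal, where all 29 lay, 7493 were higher. The list's median was 0.07, 0.003 and 0.25 within repetitions 1, 2 and 3, with 23, 15 and 26 genes higher. The replication-dependent histones had medians of 0.003, 0.12 and 0.26 there. RFC3, a clamp loader subunit, differed by 0.39, PRIM1, the primase catalytic subunit, by 0.25 and MCM3, a part of the replicative helicase, by 0.24. In the G2 and mitosis list CDK1, the mitotic kinase, measured 8.49, 8.47 and 7.97 in CD133+ cells, against 8.23, 8.37 and 6.83 in CD133- cells, with the CD133- array of repetition 3 far below the others. CKS2, which binds CDK1, differed by 0.38 and the proliferation marker MKI67 by -0.34.

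In repetitions 2 and 3 a larger share of each of these lists than of the histones was called. The S phase, G2 and mitosis, chaperone and processing genes measured all lay above the median signal. Of the 61 histone members 33 did. Calls were more frequent there: of 14115 probe sets above that signal, 2316 were called higher in repetition 2 and 1614 lower in repetition 3. In repetition 2, 26 of 29 S phase genes were called higher and 0 lower, against 8.83% of all probe sets called higher, with a median of 0.68. Replication-dependent histones in that contrast had 2 of 53 called higher and 1 lower, with a median of 0.03. CCNE1, the cyclin of S phase entry, was higher by 1.00 (limma, adjusted p = 0.00766), MCM10, a replication initiation factor, by 1.03 (adjusted p = 0.00699) and GINS2, a helicase subunit, by 0.84 (adjusted p = 0.00972). G2 and mitosis genes were called higher in 15 of 29 cases, against the same 8.83%. In repetition 3, 24 of 29 S phase and 25 of 29 G2 and mitosis genes were called lower, against 6.16% of all probe sets called lower. Their medians were -0.56 and -0.77, where the replication-dependent histones had 0.10. The kinesin CENPE was lower by 1.06 (adjusted p = 0.0171) and KIF20A, a mitotic kinesin, by 0.93 (adjusted p = 0.0188). MKI67 was lower by 0.79 (adjusted p = 0.0171). In repetition 1 the S phase median was -0.10 and the G2 and mitosis median 0.39. The part of the cell cycle lists in the histone values was not tested.

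**Figure D4:**
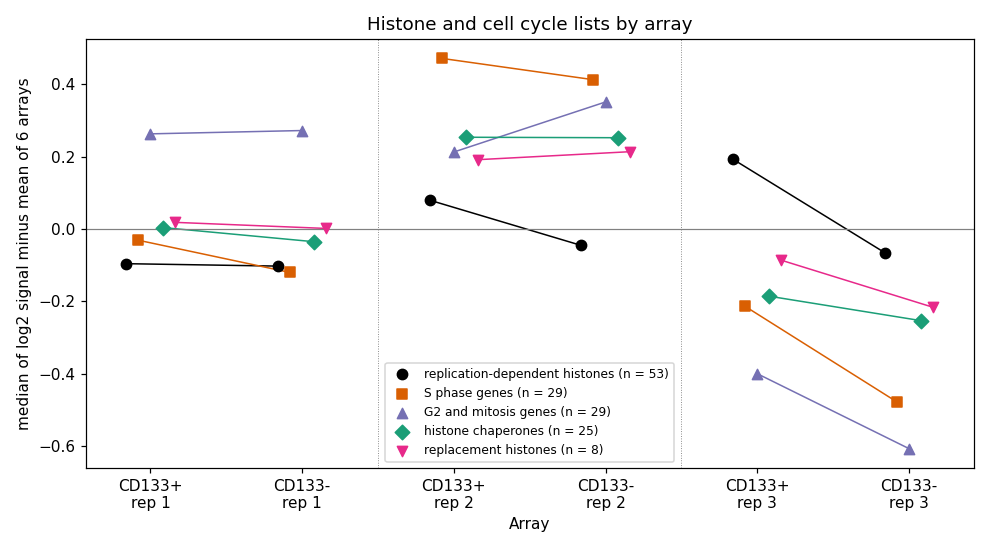
Median of log2 signal minus each probe set's mean over 6 arrays (vertical axis) for replication-dependent histones and 4 companion lists on each array (horizontal axis); lines join the fractions of a repetition. S phase genes stand at 0.47 and 0.41 in CD133+ and CD133- cells of repetition 2 and at -0.21 and -0.48 in repetition 3, where replication-dependent histones stand at 0.19 and -0.06.

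SLBP, which binds the stem-loop of histone transcripts, measured 8.76, 9.41 and 9.14 in CD133+ cells, against 8.79, 9.38 and 8.97 in CD133- cells. It differed by 0.06 between the fractions and was higher by 0.48 in repetition 2 (limma, adjusted p = 0.0220). LSM10, a subunit of the U7 particle that cuts histone transcripts, was higher by 0.55 in repetition 2 (adjusted p = 0.0164), whereas its partner LSM11 had -0.25 there (adjusted p = 0.128) and differed by 0.18 between the fractions. HINFP, an activator of H4 genes, and TENT4B, a poly(A) polymerase, differed by -0.13 and 0.17. Of the 19 transcription and processing genes measured, 9 were called higher and 1 lower in repetition 2, against 8.83% and 5.81% of all probe sets. In repetition 3, 4 were called lower, against 6.16%. Of the 14115 probe sets above the median signal, 2316 were called higher and 1217 lower in repetition 2, and 1614 lower in repetition 3. NPAT, the coactivator of histone loci, was higher by 0.41 in repetition 2 (adjusted p = 0.0302) and lower by 0.54 in repetition 3 (adjusted p = 0.0247).

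Among 25 histone chaperones 13 were called higher in repetition 2, against 8.83% of all probe sets, and 10 lower in repetition 3, against 6.16%. Of the 14115 probe sets above the median signal, where all 25 lay, 2316 and 1614 were called so. ANP32E, which removes H2A.Z, was higher by 0.54 in repetition 2 (limma, adjusted p = 0.0158) and lower by 0.82 in repetition 3 (adjusted p = 0.0171). HJURP, the centromere chaperone, was lower by 0.61 in repetition 3 (adjusted p = 0.0265). ATRX, which with DAXX places H3.3, measured 7.57, 7.33 and 7.20 in CD133+ cells, against 7.81, 7.67 and 7.64 in CD133- cells. Its groups did not overlap, and the difference of -0.34 did not pass (adjusted p = 1.00, and 0.218 with the block). RBBP4 and UBN1 differed by -0.15 and -0.19.

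The 8 replacement histones measured, which are made throughout the cell cycle, had a median difference of 0.06 between the fractions. H2AZ1, an H2A.Z gene, measured 11.15, 11.60 and 11.19 in CD133+ cells, against 11.14, 11.52 and 10.84 in CD133- cells, and H2AZ2, the other, differed by -0.11. H2AX, the variant phosphorylated at DNA breaks, differed by 0.09. In repetition 2 limma called 2 of the 8 higher, against 8.83% of all probe sets. These were H2AZ1, by 0.48 (limma, adjusted p = 0.0310), and MACROH2A1, by 0.41 (adjusted p = 0.0378). In repetition 3 it called 1 lower, MACROH2A1, by 0.44 (limma, adjusted p = 0.0403), against 6.16%. Of the 14115 probe sets above the median signal, where 7 of the 8 lay, 2316 and 1614 were called so.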

How the data were processed

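Biotin-labelled total RNA was measured on 6 Affymetrix arrays, as the labels' protocols state. The deposited values were log2 signals that the authors made with RMA, per the labels' design text; that text names a U133 array, whereas the rows carry Human Gene ST identifiers, and genes were named from the annotation of that platform. Background correction could not be repeated without scanner values. Of 32321 rows, 4091 leading rows before the first row with a gene were left out as controls. The remaining 28230 probe sets, of which 19158 carried 1 symbol, 1388 several and 7684 none, went into linear models in limma 3.58.1 under R 4.3.3 (lmFit, eBayes, two-sided, Benjamini-Hochberg over all of them, threshold 0.05), tested on simulated data. The number of arrays limits the precision. 

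The chief model of the fractions, CD133+ minus CD133-, had group as its only term. The SEs given with fraction differences come from it unless the block is named, and they include spread between repetitions. With repetition as a block the SE was 0.11 for H4C1, 0.10 for H3C12 and 0.13 for H2BC12. After removal of the group means, the arrays of repetitions 1, 2 and 3 correlated at 0.447, 0.616 and 0.589, above the bound of 0.1 in all 3 pairs, so the numbers paired the arrays by the data, and the fit that adds repetition as a block is given where it changed a count. Repetition contrasts came from a fit with fraction and repetition.

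The members and lists were chosen with earlier results of these data known. Members were named if they had 1 of the 3 highest signals of their class, or 1 of the 4 highest or lowest values in a contrast. Others, such as non-overlapping groups, divergent pairs and called genes, were added after their values were seen. In each companion list the 3 smallest unadjusted p-values in the fraction fit and in the repetition 1 contrast marked the genes to name. That contrast had the largest histone median in the fits as reported, though not without single arrays. Genes picked by it were described mainly by their values in other contrasts. Of its picks TUT7, CABIN1 and MACROH2A2 were not described above. Their contrasts were 0.48, 0.26 and 0.07 in repetition 1 and -0.14, -0.20 and 0.11 in repetition 2. H3F3A, CENPA, POU2F1 and ATF1 were among the list entries that had no probe set of 1 symbol. Protein sequences were not used here. Promoters were read from RefSeq. Alternatives were other normalizations, a filter on dim probe sets, an intensity trend, the leading rows, other memberships and each array left out.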

Additional observations from a re-analysis of the deposited data

How the results depend on the processing

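The count of members called between the fractions was 0 with the replicate block, and also under quantile normalization, centring, the filter on dim probe sets, the intensity trend, the leading rows and without each array in turn. The median difference was 0.003 to 0.15 without single arrays and 0.0009 to 0.15 when each pair was left out of the block fit. The count was 1 (H2BC14) with the block and an intensity trend and 2 (H2BC14 and H4C1) with the block on 33 brighter members, both settings chosen after seeing the data. In repetition 1 the count was 3 with the filter on dim probe sets and 2 with the trend. In repetition 2 it was 7 with centring, 0 with the leading rows and 0 to 1 without single arrays. In repetition 3 it was 1 with quantile normalization, 0 with centring, 7 with the filter, 5 with the trend, 0 with the leading rows and 0 without any single array. The share of all probe sets called under these alternatives is not given. Whether the counts of members moved with that share was not tested. The repetition 2 median was 0.053 with quantile normalization, 0.13 with centring and 0.032 with the filter. It was 0.032 without the 8 members that are not replication-dependent, and -0.055 to 0.073 without single arrays. The repetition 3 median was 0.0044 with centring and 0.043 to 0.19 without single arrays, and that of repetition 1 was -0.21 to -0.030 without single arrays.

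Among the named members, the sign of 5 fraction differences turned without single arrays; over all 61 members, 31 lay above 0 without the CD133+ array of repetition 3 and 34 without the CD133- array of repetition 1, against 40 with all arrays. Those of H2AC20 ran from -0.12 to 0.028, H2BC4 from -0.053 to 0.19, H3C1 from -0.082 to 0.17, H4C14 from -0.044 to 0.17 and H1-10 from -0.32 to 0.0050. In repetition 1 the contrasts of H3C7 ran from -0.056 to 0.42 and of H2BC5 from -0.090 to 0.34, and in repetition 3 those of H3C7 from -0.35 to 0.058 and of H2BC3 from -0.35 to 0.045. Fewer samples, or fewer tested probe sets, entered where arrays were left out or dim probe sets dropped; for the other settings the cause was not tested. Dim signals limit the 28 members at or below the median signal, and background correction was not varied.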

Other observations

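Among the 17 probe sets naming a histone gene with other symbols, repetition contrasts gave a few calls. In repetition 2 limma called 2, both lower, against 14.6% of all probe sets called and 5.81% called lower. In repetition 3 it called 2, both higher, against 10.3% called and 4.16% called higher. In repetition 2 the probe set of H4C15 and H4C14 was lower by 0.87 (limma, adjusted p = 0.0125) and that of H3C11 and H3C6 by 0.47 (adjusted p = 0.0306). In repetition 3 the probe set of H3C11 and H3C6 was higher by 0.50 (adjusted p = 0.0356) and 1 of 3 probe sets for H3C13, H3C14 and H3C15 by 0.55 (adjusted p = 0.0469), while the other probe sets for the same 3 genes had -0.05 and -0.04. The antisense gene H1-10-AS1 measured 5.75, 5.5 and 6.18 in CD133+ cells, against 5.74, 5.67 and 5.80 in CD133- cells, a difference of 0.07.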
